A study of Mus musculus with 3 samples.

Results

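The regions described here are the autosomal 5 Mb windows of the mouse genome in which peaks of the retinoic acid receptor beta (RARβ) were most numerous relative to peaks of histone H3 trimethylated at lysine 4 (H3K4me3). Autosomes were divided into windows of 5 Mb from position 1, and each peak was assigned by its summit. Windows with at least 20 H3K4me3 peaks and a ratio of RARβ to H3K4me3 peak numbers of 0.45 or more were kept. This ratio was met by 18 of 444 windows (4.05%). They held 484 of the 8075 RARβ peaks of the whole list, a share of 5.99%. The peak numbers chose the windows, so the ratios below are a description and carry no test.

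The tissue was the caudate putamen (dorsal striatum) of male mice on a mixed C57BL/6J x 129SvEms/j background. The mice were wild type, and came from matings that also gave RARβ-null littermates. Chromatin immunoprecipitation followed by sequencing (ChIP-seq) used 1 library per antibody: RARβ (sc-552, Santa Cruz), H3K4me3 (ab8580, Abcam) and GFP (ab290, Abcam). Only the RARβ and H3K4me3 peak lists were analysed here. The labels give neither the animals' age nor how many animals made up a library. Gene positions of build mm9, in which the peaks are given, were not used here. Sites are therefore named by position, and the labelled tissue was not checked against marker genes.

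RARβ belongs to the nuclear receptors. It binds DNA, commonly as a heterodimer with a retinoid X receptor, and changes transcription when retinoic acid binds it. It is one of the retinoid receptors of the striatum, where retinoic acid signalling takes part in the development and function of medium spiny neurons. H3K4me3 marks active and poised promoters. Of the H3K4me3 peaks counted here, only 28.9% in the 18 windows and 34.7% in the others had an FDR of 5% or less. Their number in a window is therefore not a count of the promoters in use there. Enhancers usually carry little of this mark. A RARβ peak outside H3K4me3 peaks may still lie next to one, so the distances are given as well.

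After redundant tags were removed, 2237580 tags were left in the RARβ library and 47461843 in the H3K4me3 library, 21.2 times as many. Before this, the RARβ library had 4994799 tags, of which 55% were redundant. The redundant rate given for the H3K4me3 library was 0.21. The fewest tags of any RARβ peak were 7, and weaker sites were not detectable at this depth. With 1 library per antibody no value has a replicate error. Wilson, Poisson and exact binomial 95% intervals cover counting error only, since amplified tags carry no molecular identifiers, and they do not allow for windows having been chosen by their counts. Intervals of shares and of their differences also count each RARβ peak as independent, although many peaks stood close together. They may therefore be too narrow.

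Over all autosomes there were 8020 RARβ and 35195 H3K4me3 peaks, a ratio of 0.228. The 18 rich windows had 484 RARβ and 900 H3K4me3 peaks, a pooled ratio of 0.538, and the other 426 windows had 0.217. Both numbers moved the ratio. RARβ peaks were more numerous, with a median of 24 per window (range 10 to 64) against 14 in the other windows (range 1 to 63). H3K4me3 peaks were fewer, with a median of 46.5 per window (range 20 to 132) against 69. Of the 18 windows, 15 had more RARβ peaks than the median of the others, as did 46.2% of the others themselves, and 15 had fewer H3K4me3 peaks than the median of the others. The window from 105 to 110 Mb of chromosome 12 had the most RARβ peaks of all 444 windows, whereas that from 195 to 200 Mb of chromosome 1 had only 10 and entered with 20 H3K4me3 peaks, the fewest allowed.

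**Figure D1:**
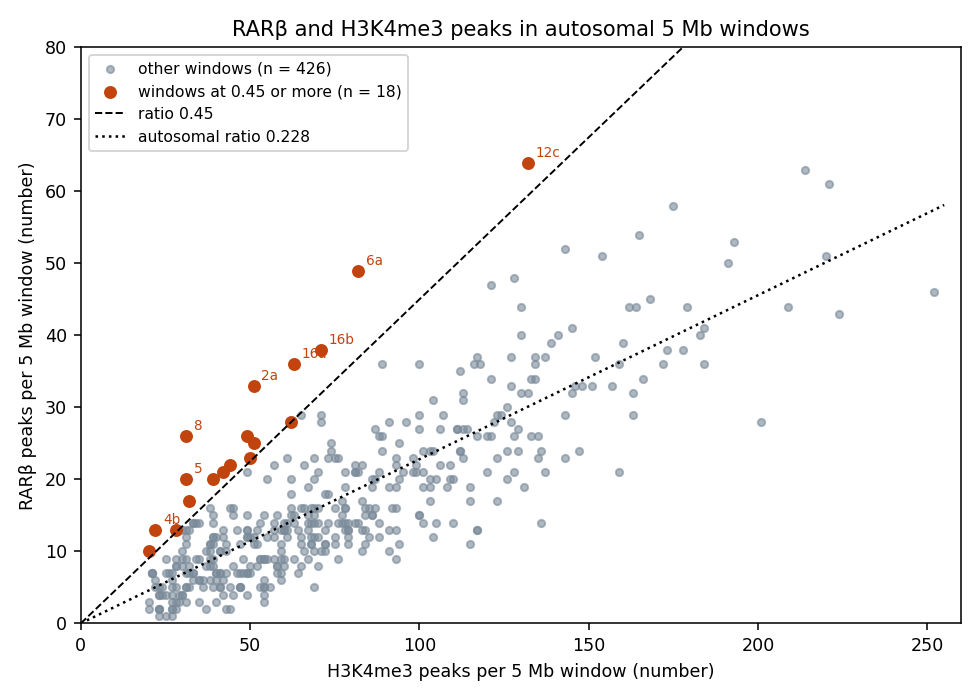
Each point is an autosomal 5 Mb window with at least 20 H3K4me3 peaks, with its number of H3K4me3 peaks on the x axis and of RARβ peaks on the y axis. The 18 rich windows lie on or above the dashed line of ratio 0.45 and the other 426 below it. The dotted line is the autosomal ratio of 0.228. Of the rich windows, 8 are named by chromosome, with a letter by position where a chromosome has several.

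The highest ratio was 0.839 (exact binomial 95% interval 0.478 to 1.46), at 75 to 80 Mb of chromosome 8. It was followed by 0.647 (0.405 to 1.02) at 5 to 10 Mb of chromosome 2 and 0.645 (0.349 to 1.17) at 85 to 90 Mb of chromosome 5. These intervals overlap, so the order of the leading windows is not fixed by the counts. Just inside the threshold were windows at 105 to 110 Mb of chromosome 14 with 0.464, at 140 to 145 Mb of chromosome 2 with 0.460 and at 10 to 15 Mb of chromosome 4 with 0.452. Just outside it were those at 95 to 100 Mb of chromosome 7 with 0.446, at 15 to 20 Mb of chromosome 3 with 0.433 and at 0 to 5 Mb of chromosome 12 with 0.429. No gap separated the 2 sides.

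The rich windows lay on 10 of the 19 autosomes. Chromosomes 2 and 12 had 3 each, chromosomes 4, 6, 14 and 16 had 2 each, and chromosomes 1, 5, 8 and 9 had 1 each. Only the pair on chromosome 16, from 5 to 15 Mb, were neighbours. Among the 32 cases of a rich window next to a window with at least 20 H3K4me3 peaks, the neighbour was above the autosomal ratio in 13, while 42.6% of all 444 windows were. The median ratio of these neighbours was 0.220, against 0.214 for all 444. The windows next to a rich one were thus about as rich as an ordinary window. Which windows were rich depended on where the grid began: with the grid shifted by 2.5 Mb, 13 windows with 399 RARβ peaks met the rule, and 217 of those peaks were among the 484. It depended on the weak H3K4me3 peaks too. With only H3K4me3 peaks whose FDR was 5% or less and the same multiple of the autosomal ratio, 7 windows were left. Of these 7, 1 was among the 18. Only 3 of the 18 had the 20 such peaks that the rule asked for, and 1 of these 3 passed. When windows with 7 or more such peaks were admitted, 30 passed and 12 of the 18 were among them.

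RARβ peaks in the rich windows lay in H3K4me3 peaks less often than elsewhere. An overlap of at least 1 bp was found for 243 of the 484, a share of 50.2% (Wilson 95% interval 45.8 to 54.6), against 64.9% over all autosomes and 66.6% (65.5 to 67.6) in the other 426 windows. The difference was -16.3 percentage points (Newcombe 95% interval -20.9 to -11.8). The share was below that of the other windows in 16 of the 18 (background 50.9% of the other windows). It ranged from 30.8% at 25 to 30 Mb of chromosome 9 to 70% at 85 to 90 Mb of chromosome 5, and leaving out each window in turn gave 49.3% to 51.7%. Counting H3K4me3 peaks whose FDR was 5% or less, it was 26.7% (22.9 to 30.8) in the rich windows and 41.4% (40.2 to 42.5) in the others. Peak numbers of both lists had chosen the windows, so no test was made.

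Divided by position, the surplus had more peaks outside than inside the mark. At the rate of the other windows per H3K4me3 peak, 900 H3K4me3 peaks would come with 130 RARβ peaks inside the mark and 65.4 outside. The 243 found inside were 1.87 times that number, and the 241 found outside were 3.68 times. Of the surplus of 288 peaks, 60.9% therefore lay outside H3K4me3 peaks. Per H3K4me3 peak, both kinds were above the pooled value of the other windows in all 18 rich windows, while 43.2% of the other windows were above it inside the mark and 47.2% outside. The sum of both kinds per H3K4me3 peak is the ratio that chose the windows, so nothing is read from these counts. The plot of peaks inside and outside the mark gives each window.

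**Figure D2:**
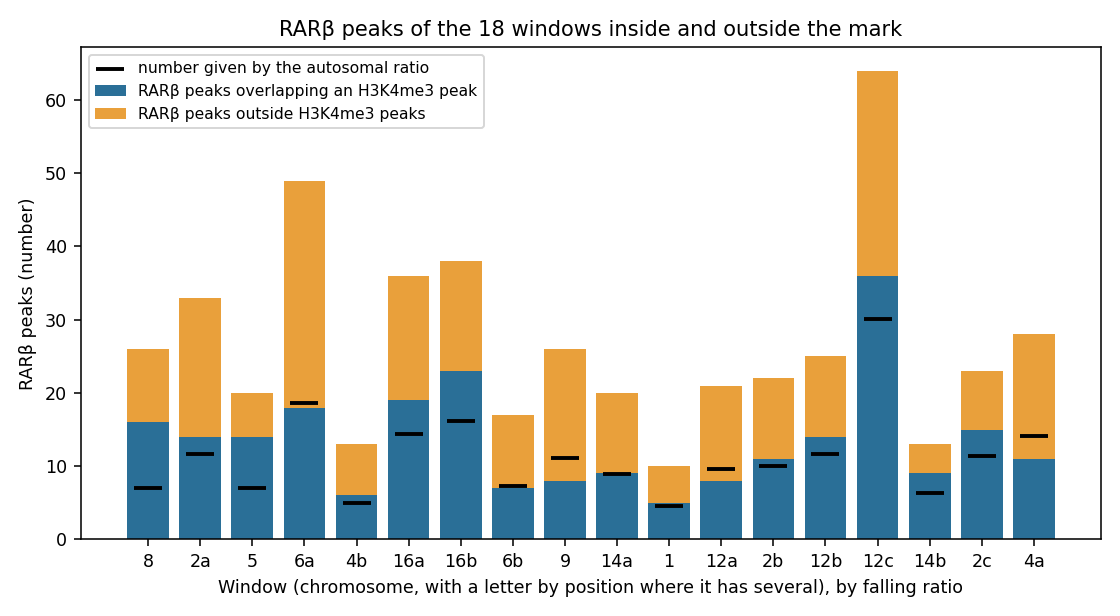
Stacked bars give the number of RARβ peaks overlapping an H3K4me3 peak (blue) and outside (orange) in each of the 18 windows, in order of falling ratio, named by chromosome and a letter by position. Black dashes are the numbers that the autosomal ratio gives. At 95 to 100 Mb of chromosome 6, labelled 6a, 18 of 49 peaks were inside the mark.

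H3K4me3 peaks covered 2.33% of the rich windows and 3.56% of the others, and the part of this in the lower share was not tested. The shares are given side by side for windows of like H3K4me3 number, in classes chosen after the values were seen. Among windows with 20 to 39 H3K4me3 peaks, the share inside was 55.5% (46.5 to 64.1) in the 7 rich windows and 57.5% (53.5 to 61.3) in 87 others, with 1.36% and 1.37% of the sequence marked. These shares could not be told apart at this depth. With 40 to 59 H3K4me3 peaks it was 46.7% (38.9 to 54.6) in 6 rich windows and 60.4% (56.9 to 63.8) in 83 others, with 2.14% and 2.11% marked. With 60 to 132 it was 49.8% (43.1 to 56.4) in 5 rich windows and 65.0% (63.5 to 66.4) in 204 others, with 3.92% and 4.03% marked. In these 2 classes the intervals did not overlap. They count neighbouring peaks as separate, and the rich windows numbered only 6 and 5, so nothing is concluded from this.

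**Figure D3:**
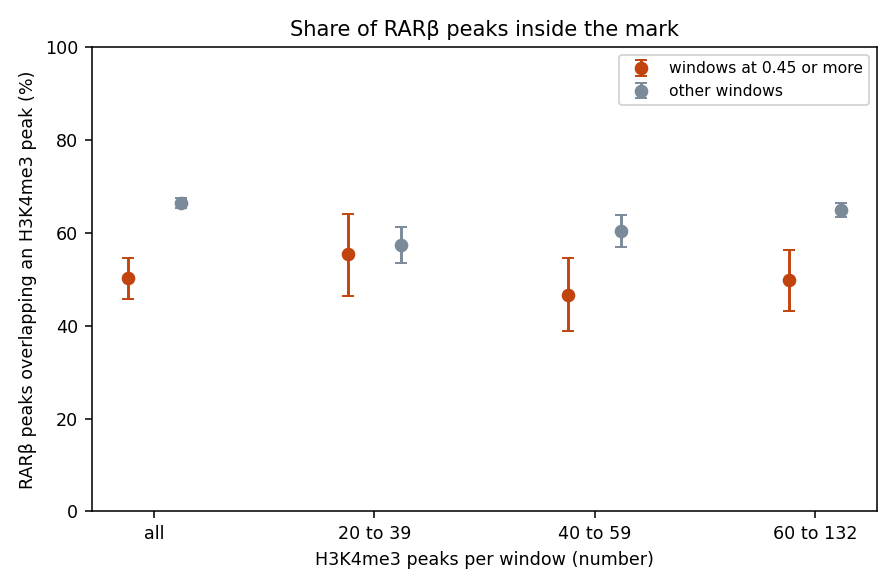
Points give the percentage of RARβ peaks that overlap an H3K4me3 peak in rich windows (red) and other windows (grey), for all windows and by the number of H3K4me3 peaks per window. Bars are Wilson 95% intervals. The rich windows are lower in the classes of 40 to 59 and 60 to 132 H3K4me3 peaks, and the intervals overlap in that of 20 to 39.

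Outside the mark, the median distance to the nearest H3K4me3 peak was 16.2 kb in the rich windows and 14.0 kb in the others. Peaks within 5 kb made up 23.2% (Wilson 95% interval 18.3 to 29.0) of the 241 outside peaks, and 27.4% (25.7 to 29.2) in the other windows. More than 100 kb away were 35 of them, or 14.5% (10.6 to 19.5), against 8.67% (7.62 to 9.85). These far peaks were uneven among the windows: 9 lay at 5 to 10 Mb of chromosome 2, where the median distance was 91.2 kb, and 5 windows had none. Among windows of like H3K4me3 number, the intervals of the far shares overlapped. With 20 to 39 H3K4me3 peaks the shares were 20.8% in rich and 24.3% in other windows. They were 20% and 16.8% with 40 to 59, and 7.41% and 6.82% with 60 to 132. The median distances in these classes were 19.8 and 33.4 kb, 19.6 and 22.3 kb, and 14.9 and 13.6 kb.

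The mark itself differed. H3K4me3 peaks of the rich windows were weaker, with a median of 149.5 tags and a fold enrichment of 7.88, against 204 tags and 10.21 in the other windows. The FDR was 5% or less for 28.9% and 34.7% of them. At the same time, wide H3K4me3 peaks of 8 kb or more were more frequent. There were 23 of them, 2.56% (1.71 to 3.81) of the H3K4me3 peaks, against 1.27% (1.15 to 1.39), and 17 of the 18 windows had at least 1 (background 57.5% of the other windows). A wide peak counts once in the ratio but can hold several RARβ peaks, so its frequency is no measure apart from the rule. Wide H3K4me3 domains are known to mark genes that define a cell type. They held 38 RARβ peaks, 7.85% (5.77 to 10.6) of the members, against 6.21% (5.68 to 6.79) in the other windows, so they account for few of the members. No RARβ peak lay in 7 of the 23.

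Whether the excess came from a few stretches or from the whole window was asked next. From each window the stretch of 500 kb with the most RARβ summits was taken out, together with its H3K4me3 peaks. Each stretch began at a RARβ summit and was cut off at the end of the window, so that on chromosome 9 covered only 431.5 kb. These 18 stretches held 197 of the 484 RARβ peaks, 40.7%, and 183 H3K4me3 peaks. In the other windows with 10 to 64 RARβ peaks, the densest stretch held 37.2%. The medians over windows were 42.4% in the rich windows and 37.8% in these. The numbers of RARβ peaks were not matched within this range, with a median of 24 in the rich windows and 19 in these. No statement on which were more uneven is therefore made. Without these stretches the pooled ratio fell to 0.40, and that of the other windows, treated alike, to 0.163. The ratio stayed at 0.45 or more in 6 of the 18 (background 0% of the other windows) and above the autosomal ratio in 17 (background 14.8%). The other windows had been chosen to lie below 0.45, so both counts are a description and nothing is read from the difference. Of the excess over the autosomal ratio, 279 peaks in all, 44.3% was left. The share left in a window ranged from -27.0% to 71.3%, and 5 windows kept 50% or more.

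The members were also counted in bins of 500 kb. Of the 180 bins in the 18 windows, which include 5 beyond the last peak of chromosome 1, 123 held a RARβ peak and 105 had more than the autosomal ratio gave. The 35 bins with 5 or more RARβ peaks held 61.6% of the members. In 15 windows the 2 bins with the largest excess held at least 50% of the positive excess, but 95.5% of the other windows did so too. The median share in these 2 bins was 63.3% in the rich windows and 85.8% in the others. A median of 6 of the 10 bins had an excess in the rich windows and 3 in the others. In the 301 other windows with 10 to 64 RARβ peaks these medians were 81.2% and 4 bins. An excess is counted from the autosomal ratio, and the windows were chosen for a high ratio, so nothing is read from these differences.

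**Figure D4:**
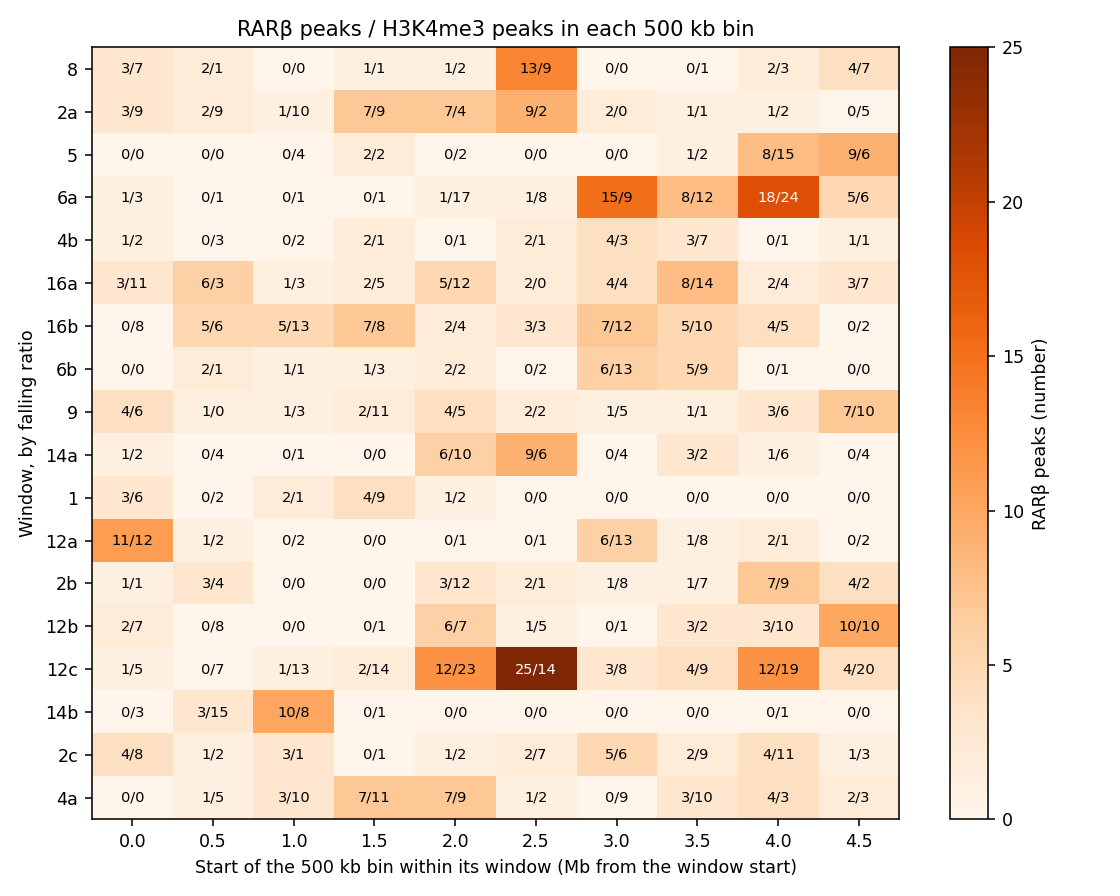
Rows are the 18 windows in order of falling ratio and columns are bins of 500 kb, by their distance from the window start. Each cell prints RARβ peaks and H3K4me3 peaks, and the colour gives the number of RARβ peaks. The fullest bin, at 105 to 110 Mb of chromosome 12 (12c), has 25 RARβ and 14 H3K4me3 peaks, while 16a has RARβ peaks in all 10 bins.

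The windows whose ratio stayed at 0.45 or more without their densest stretch were those on chromosomes 8 and 9, both on chromosome 16, that at 5 to 10 Mb of chromosome 2 and that at 65 to 70 Mb of chromosome 4. At 75 to 80 Mb of chromosome 8, 26 RARβ peaks (Poisson 95% interval 17.0 to 38.1) stood against 31 H3K4me3 peaks, 3.68 times the number the autosomal ratio gave, and 16 were inside the mark. From 77398745 to 77898744 there were 14 RARβ and 10 H3K4me3 peaks, and the ratio was 0.571 without them. This stretch held 53.8% of the RARβ peaks of the window. Only 38.1% of the excess over the autosomal ratio was left without it, against a median of 42.7% over the rich windows. The ratio thus stayed above 0.45 although most of the excess lay in this stretch. Of the 26 peaks, 20 had a neighbour within 10 kb, in groups of at most 3. The peak with the most tags, 32 (21.9 to 45.2), also had the highest fold enrichment of this window, 52.11. It lay at 77681437 to 77682507 in an H3K4me3 peak, in a group of 3. Counted as single sites within 10 kb, the 26 peaks became 14.

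The window from 5 to 10 Mb of chromosome 2 had the largest median distance of outside RARβ peaks from the mark, 91.2 kb, although 5 other windows had a lower share inside. It had 33 RARβ peaks, of which 14 were inside, and 51 H3K4me3 peaks. From 1.5 to 3 Mb after its start, 3 successive bins held 7, 7 and 9 RARβ peaks, while their H3K4me3 peaks fell in number from 9 to 4 and 2. The densest stretch, 7452280 to 7952279, held 10 RARβ peaks, none in an H3K4me3 peak, and 2 H3K4me3 peaks. Its strongest sites lay at 7451820 to 7453219 with 42 tags and a fold of 46.43, 109 kb from the nearest H3K4me3 peak, and at 7920587 to 7921649 with 33 tags and a fold of 92.86, 172 kb away. Another, at 7655227 to 7656590, had 40 tags and lay 91.2 kb away. Without this stretch the ratio was 0.469.

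On chromosome 16 the peaks of the 2 adjoining windows were spread over most bins. That from 5 to 10 Mb had 36 RARβ and 63 H3K4me3 peaks, RARβ peaks in all 10 bins and an excess in each. That from 10 to 15 Mb had 38 RARβ and 71 H3K4me3 peaks, and an excess in 8 bins, and no RARβ peak in the first and the last bin. Their densest stretches held only 10 and 9 RARβ peaks, and 67.5% and 71.3% of the excess was left without them. Peaks stood mostly alone: 4 of the 36 and 7 of the 38 had a neighbour within 10 kb. The site with the most tags of the first window, 24, lay at 7892629 to 7893505, 214 kb from an H3K4me3 peak, and had a fold enrichment of 69.64. In the second window the site with the most tags, 30, was at 11908890 to 11910134 inside the mark and had a fold enrichment of only 13.14. The highest there was 37.66, at 12388849 to 12389831 with 14 tags, 190 kb from the mark. The windows on either side, at 0.205 and 0.141, were below the autosomal ratio.

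At 25 to 30 Mb of chromosome 9, 26 RARβ peaks were spread over all 10 bins, with 8 inside the mark, the lowest share of the 18 windows. Its densest stretch, at the upper end of the window, held 7. The site with the most tags, 36, at 29973606 to 29974533, was 12.4 kb from an H3K4me3 peak. At 65 to 70 Mb of chromosome 4 only 13 RARβ peaks stood against 22 H3K4me3 peaks, of which 13.6% had an FDR of 5% or less. A site there at 66555073 to 66556489 had 54 tags and a fold of 127.68, at 27.7 kb from the mark, and another at 68449381 to 68450171 had 34 tags and 104.47 at 12.6 kb. No RARβ peak of this window was in an H3K4me3 peak of such an FDR.

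Of the 18 windows, the 2 with the most RARβ peaks had dense parts. At 95 to 100 Mb of chromosome 6, 49 RARβ peaks stood against 82 H3K4me3 peaks, and 46 of them lay in the last 2 Mb, in bins of 15, 8, 18 and 5. The 6 bins before held 3 RARβ and 31 H3K4me3 peaks. The stretch from 99171425 to 99671424 held 22 RARβ peaks, and without it the ratio was 0.443, since the bin from 3 to 3.5 Mb, with 15 RARβ and 9 H3K4me3 peaks, stayed in. Of the 49 peaks, 38 had a neighbour within 10 kb. The most tags, 93 (Poisson 95% interval 75.1 to 114), were at 99471382 to 99474182, near the end of a 17.4 kb H3K4me3 peak that held 4 RARβ peaks. A second wide H3K4me3 peak of 20.4 kb, at 98959332 to 98979758, held 3. Most sites, 31 of 49, lay outside the mark, at a median distance of 11.0 kb. The highest fold enrichment, 72.8, was also outside, at 98238041 to 98238847 with 24 tags.

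At 105 to 110 Mb of chromosome 12, 64 RARβ peaks (Poisson 95% interval 49.3 to 81.7) stood against 132 H3K4me3 peaks. The stretch from 107449800 to 107949799 held 25 RARβ and 15 H3K4me3 peaks, and 9 of the 25 were inside the mark. Without it the ratio was 0.333. A group of 5 within 6.41 kb, at 107710446 to 107716858, included the site with the most tags of this window, 35. A further 4 peaks with 10 to 29 tags lay within 15.6 kb at 107917085 to 107932659, with 1 inside the mark. The second dense part was the 38.1 kb H3K4me3 peak at 109207018 to 109245146, which held 6 RARβ peaks. The highest fold enrichment, 73.51, was outside the mark at 109052190 to 109052987 with 29 tags. Bins in the first 2 Mb held 4 RARβ and 39 H3K4me3 peaks, so that part of the window was poor in RARβ.

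The windows that kept the least of their excess without their densest stretch were on chromosomes 14, 5 and 12. In the order given below, -27.0%, 10.5%, 12.9% and 27.7% of it was left. Most of the excess lay in 1 stretch in other windows too, since only 5 of the 18 kept 50% or more. At 105 to 110 Mb of chromosome 14, 10 of the 13 RARβ peaks lay within 106030594 to 106530593, and 4 of them in a 9.72 kb H3K4me3 peak. The ratio of the rest was 0.143, below the autosomal one. At 15 to 20 Mb of chromosome 14, 12 of 20 lay within 17387466 to 17887465, the rest had 0.267, and the site at 17407235 to 17408381 had 74 tags near the end of an 11.3 kb H3K4me3 peak. At 85 to 90 Mb of chromosome 5, 14 of 20 lay within 89362133 to 89862132 and the rest had 0.316. A 10 kb H3K4me3 peak at the start of that stretch, 89362256 to 89372255, held 4 RARβ peaks. The most tags of this window, 23, were at 89556975 to 89557775, and the highest fold, 49.81, at 89387941 to 89388742 with 19 tags, both inside the mark. At 5 to 10 Mb of chromosome 12, 11 of 21 lay in the first 500 kb bin and the rest had 0.333. The bins next to it held 1 RARβ peak or none up to 3 Mb from the window start.

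The other windows were also below 0.45 without their densest stretch. At 105 to 110 Mb of chromosome 6, 17 RARβ peaks stood against 32 H3K4me3 peaks, 9 of them in the densest stretch. At 25 to 30 Mb of chromosome 12, 25 stood against 51, and a group of 4 at 27048141 to 27062883 had no peak inside the mark, while the strongest site, with 41 tags and a fold of 91.95, at 29780576 to 29781617, was inside. At 110 to 115 Mb of chromosome 2, 22 stood against 44, with 11 inside. At 140 to 145 Mb of chromosome 2, 23 stood against 50, spread over 9 bins with at most 5 each. The densest stretch of this window held 21.7% of its RARβ peaks, the lowest share of the 18 windows. Without that stretch 66.7% of its excess was left. Its site at 144284225 to 144285436 had 67 tags and a fold of 141.76, the highest among the members. At 10 to 15 Mb of chromosome 4, 28 stood against 62 and 11 were inside. The site with the most tags there, 30, was 59.2 kb from the mark at 12401246 to 12402077. On chromosome 1, all 10 RARβ and 20 H3K4me3 peaks lay in the first 5 bins. The window is the last of its chromosome, whose last peak in either list ended at 197 Mb (197068704), so it covers less than 5 Mb of sequence and its last 5 bins need not exist. Shares of marked sequence count it as 5 Mb.

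RARβ peaks in rich windows stood close together more often. A neighbour with a summit within 10 kb was found for 205 of the 484, or 42.4% (Wilson 95% interval 38.0 to 46.8), against 27.8% (26.7 to 28.8) in the other windows. More peaks in a window bring more neighbours, so this is no measure apart from the rule. In the rich windows 29 groups of 3 or more held 101 peaks, and 11 groups of 4 or more lay in 6 of the windows. On average a site merged over 10 kb held 1.34 peaks in the rich windows and 1.19 in the others. With peaks within 10 kb counted as 1, which lowers the autosomal ratio too, 7 of the 18 windows still had a ratio of 0.45 or more. At the same multiple of the autosomal ratio 17 windows passed, and 12 of the 18 were among them.

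The RARβ peaks of rich windows had about the same tag numbers as those elsewhere. The median was 10 tags in both, with quartiles of 8 and 14 in both, and the mean was 12.7 against 12.5. Peaks with 7 tags, the fewest in the list, made up 23.1% (Wilson 95% interval 19.6 to 27.1) of the members and 21.5% (20.6 to 22.5) of the peaks in other windows. Peaks with at least 30 tags made up 3.93% (2.53 to 6.05) and 3.24% (2.86 to 3.67). The intervals overlapped for both classes. Over windows, the median was above 10 in 9 of the 18 (background 29.6% of the other windows), 10 in 4 and below in 5. The lowest median was 7.5, on chromosome 1, and the highest 13, at 105 to 110 Mb of chromosome 14, within the range of 7 to 26 of the other windows.

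Outside the mark the median was 10 tags in rich windows and 9 in others, and inside it was 10 in both. Fold enrichment, which the authors' peak caller computed as summit height over local background, had a median of 22.99 in rich windows and 19.35 in the others, with quartiles of 17.24 to 27.08 and 15.33 to 26.82. The values moved in steps of 3.87 where the local background was at its genome-wide floor. The median of 19.35 was on such a step and that of 22.99 was not. What part the steps had in the difference was not tested. A fold on such a step was found for 33.1% (29.0 to 37.4) of the members and 30.2% (29.1 to 31.2) of the others. The highest number of tags among the members was 93, while the other windows held peaks of up to 1577, so the peaks with the most tags of the list lay elsewhere. Of the 484 members, 4 had an FDR above 5%, and these were the 4 with the most tags. All 4 are named above: those with 93, 74, 67 and 54 tags had FDRs of 9.09%, 20%, 14.29% and 6.67%.

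**Figure D5:**
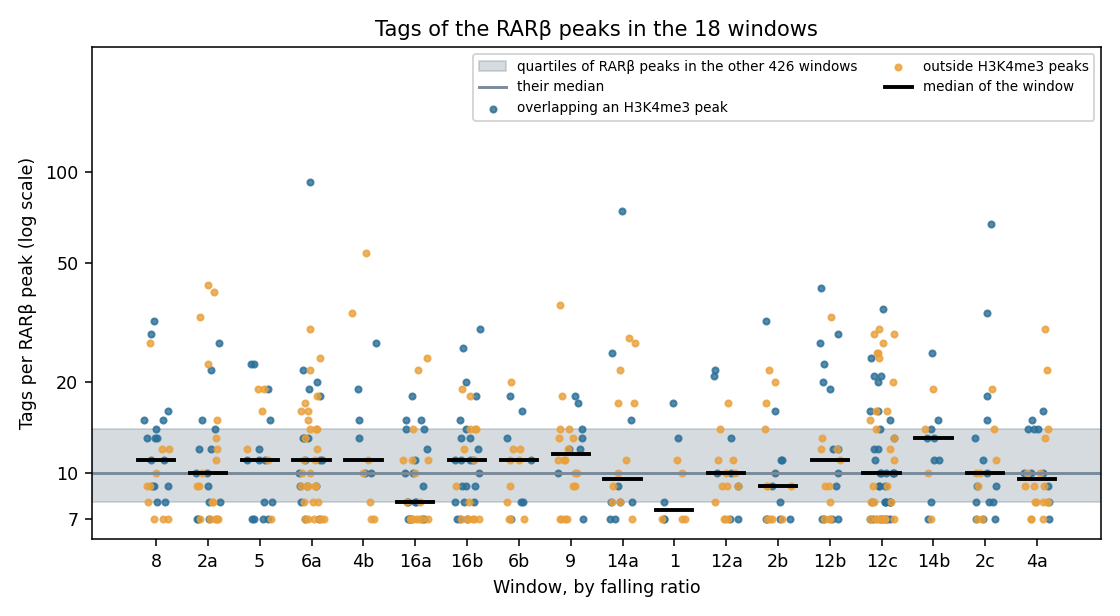
Each point is a RARβ peak of a rich window with its tag number on a log scale, blue where it overlaps an H3K4me3 peak and orange where it does not. Black bars are window medians, and the grey line and band are the median of 10 and the quartiles of 8 and 14 in the other 426 windows. The window medians lie between 7.5 and 13.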

How the data were processed

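The submitters' processing notes name CASAVA 1.8.2, Bowtie and genome build mm9. Libraries were read as single ends of 50 bases after 14 PCR cycles, per the labels' protocols. MACS 1.4.2 called the peaks of either library separately, at a p cutoff of 1e-05, with at most 1 tag kept per position, per the file headers. Both lists used the same control of 3703580 filtered tags, whose antibody is not given in the sources used here. It was scaled up 12.8 times for H3K4me3. The tag counts per peak were deposited without normalization. The fold enrichment, a ratio, the score, −10 times log10 of the p-value, and the FDR in percent are the authors' deposited values.

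Overlap meant at least 1 bp in common. Windows, shares and medians were computed with pandas 2.3.3, numpy 2.4.6 and scipy 1.17.1 under Python 3.11.15, and matplotlib 3.10.9 drew the plots. The functions were checked on simulated lists. Medians and shares were not tested, since the peak numbers had chosen the windows and there was 1 library per antibody. The windows, the measures and the lists were chosen with earlier results of these data known. All 18 windows are named. For the 5 with the highest ratio and the 5 with the most RARβ peaks, the peaks with the most tags and the highest fold are given. Other peaks and groups, and the division by H3K4me3 number, were chosen after their values were seen. Planned gene lists were not run without gene positions of build mm9.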

Additional observations from a re-analysis of the deposited data

How the results depend on the processing

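No paired analysis was possible because there was 1 library per antibody. Of 36 alternative values, 28 stayed within 1.5 times of a count or within the 95% interval of a difference. A count that stayed alike need not be of the same windows. With only RARβ peaks of a score at or above the median, at the same multiple of the autosomal ratio, 25 windows passed. Of these 25, 15 were among the 18. With at least 40 H3K4me3 peaks required, 11 windows were rich, and at a ratio of 0.40 there were 30. With the mark limited to peaks whose FDR was 5% or less, 7 windows with 268 RARβ peaks were left, and with 7 or more such peaks, an alternative added after seeing the data, 30 windows with 785. The cause was not tested. Shifting the grid by 2.5 Mb gave a difference in the share inside H3K4me3 peaks of -11.7 percentage points, and the other 8 alternatives gave -18.9 to -14.0. With RARβ peaks within 10 kb counted as 1, 3 windows stayed at 0.45 or more without their densest stretch. Depth limits RARβ sites to those with at least 7 tags.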

Other observations

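Windows with fewer than 20 H3K4me3 peaks stood outside the rule. There were 60 of them on the autosomes, with 226 RARβ peaks, and 15 had a ratio of 0.45 or more. These 15 held 96 RARβ and 134 H3K4me3 peaks, and 38 of the 96 overlapped the mark. The largest number was 16 RARβ peaks against 19 H3K4me3 peaks, at 155 to 160 Mb of chromosome 3, with 6 inside the mark. At 100 to 105 Mb of chromosome 8, RARβ peaks outnumbered H3K4me3 peaks, 10 against 9, and 2 were inside. At 45 to 50 Mb of chromosome 15 there were 5 against 2. The window from 95 to 100 Mb of chromosome 2 had 8 against 11, with up to 882 tags in a peak and a median of 22.5.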
